A study of Mus musculus with 12 samples.

Results

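The respiratory chain and ATP synthase genes of the nuclear genome were followed across 12 RNA-seq libraries of adult mouse neural stem/progenitor cells (aNSPCs). A gene was taken as a member when its symbol began with Nduf, Uqcr, Cox4 to Cox8 or Atp5, or was Sdha, Sdhb, Sdhc, Sdhd or Cyc1, when it was not encoded in mitochondrial DNA, and when its mean level over the 12 libraries was at least 1 FPKM (a fragment count scaled to transcript length and to the mapped fragments of the library). Of 55401 genes in the tables, 113 had such a symbol and 101 of these reached that level, against 12928 genes of any kind. Ndufs5-ps, with a mean of 1.59 FPKM, and Cox8b, with 2.13 FPKM, lay just inside the threshold. Atp5l-ps1, with 0.53 FPKM, and Cox6a2, with 0.27 FPKM, lay just outside it.

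The cells came from the forebrains of C57BL/6 mice aged 8 to 10 weeks and were kept in medium with B27, EGF and FGF-2. There were 4 groups of 3 libraries: Ctrl and NAD+ under proliferating conditions, and Ctrl and NAD+ under differentiation conditions. NAD+ was given at 1 mM, for a time not stated for these libraries, and differentiation was driven by 1 µM retinoic acid and 5 µM forskolin in the study's assays. No genotype, allele or strain separated the groups, the treatment label read untreated for every library, and the groups followed the sample titles. The libraries of a group were called biological repeats, with nothing on whether they came from separate cultures or animals, so p-values measured the spread between these libraries, which may be technical. The files gave no read depth, so no counting error could be attached to a level.

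In the respiratory chain, complex I takes electrons from NADH and returns NAD+, complex II takes them from succinate, complex III passes them to cytochrome c, and complex IV hands them to oxygen. The proton gradient that complexes I, III and IV build drives ATP synthase, in which protons pass through the membrane part Fo and turn a rotor inside the catalytic head F1. Most subunits are made in the cytosol from nuclear genes and imported, while a few core subunits are encoded in mitochondrial DNA. Neural stem cells are known to rely largely on glycolysis and to take up more oxidative metabolism along the neuronal lineage.

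The 101 members comprised 7 core subunits, 29 supernumerary subunits and 8 assembly factors of complex I, 4 subunits of complex II, 9 of complex III and 15 of complex IV. ATP synthase gave 5 genes of F1 and 12 of Fo and the stalk that joins it to the head. The other 12 were 9 processed pseudogenes, the transcribed pseudogene Cox7c-ps1, the lncRNA Ndufb1-ps and the protein-coding Cox5b-ps in GENCODE M21, and these were kept apart because reads may be shared with their parent genes. Only uniquely mapped reads were counted by the authors, so the split between close copies, such as Ndufa12-ps at a mean of 107 FPKM and Ndufa12 at 27.9 FPKM, is uncertain.

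The members stood high among expressed genes. The median of the 89 named subunits and assembly factors was 49.7 FPKM, against 6.08 FPKM for all 12928 genes at or above 1 FPKM, and their median exonic length in GENCODE M21 was 1718 bases against 4091. The highest was Cox6a1, a small subunit of complex IV, with a mean of 391 FPKM over the 12 libraries. Leading genes of other role groups were lower. Atp5b, the catalytic beta subunit, led F1 with 270 FPKM, Ndufc2 led the supernumerary subunits of complex I with 227 FPKM, and Uqcr10 led complex III with 151 FPKM. Atp5g3, a source of the c subunit, led Fo and the stalk with 113 FPKM, and Sdha, the succinate-oxidising flavoprotein, led complex II with 110 FPKM. The assembly factors, which help to build complex I without staying in it, were the lowest group, from 3.75 FPKM for Ndufaf4 to 11.04 FPKM for Ndufaf8. Some tissue-restricted isoforms were at or near the floor: Cox4i2 had a mean of 0.071 FPKM, Ndufa4l2 of 0.12 FPKM and Cox7b2 of 0.015 FPKM, and the testis isoform Cox8c was listed at 0 in all libraries. Others were low but above the threshold, namely Cox6b2 with a mean of 6.70 FPKM, Cox7a1 with 3.39 FPKM and Cox8b with 2.13 FPKM.

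The promoters of the members were read for short motifs, because genes of this set are known to share binding sites for the nuclear respiratory factor NRF1, for ETS factors such as GABP and for YY1. Of the 101 members, 75 matched a RefSeq promoter window on GRCm38.p6 by symbol, giving 80 windows of 300 bases, from 250 bases before to 50 bases after the start. The letters GCGCATGC, part of the NRF1 site, lay on either strand in 12 of the 80 windows (15.0%), against 2.71% of all 32851 windows in that table. CCGGAAG, an ETS core, was in 19 of 80 (23.75%) against 8.86%, and AAGATGG, a YY1 core, was in 12 of 80 (15.0%) against 6.34%. The GC box GGGCGG was in 35 of 80 (43.75%) against 35.7%, and TATAAA was in 8 of 80 (10.0%) against 13.6%. All were counted on both strands, and CCGGAAG and AAGATGG can share the letters AAG. The holders of GCGCATGC included members from complexes I to IV and ATP synthase. The 30 bases around it are given for the highest member of each role group that holds it and for those that passed the test in the NAD+ comparison under differentiation conditions; capitals mark GCGCATGC or its reverse complement GCATGCGC, which overlap where 10 letters are in capitals.
Atp5g2: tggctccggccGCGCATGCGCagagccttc
Ndufa8: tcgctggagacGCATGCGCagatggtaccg
Ndufaf5: tagtcccgttgGCGCATGCGCctaatagaa
Sdhb: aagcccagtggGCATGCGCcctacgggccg
Uqcr11: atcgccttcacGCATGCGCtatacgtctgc
Cox6a1: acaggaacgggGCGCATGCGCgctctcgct
On GRCm38.p6 these stretches are chr15:102671071-102671100 (minus strand) for Atp5g2, chr2:36049328-36049357 (minus) for Ndufa8, chr2:140170651-140170680 (plus) for Ndufaf5, chr4:140961206-140961235 (plus) for Sdhb, chr10:80406807-80406836 (minus) for Uqcr11 and chr5:115349102-115349131 (minus) for Cox6a1. In GENCODE M21 the stretch overlaps an exon of the gene itself for all but Cox6a1, whose stretch lies upstream of the gene and touches an exon of Gm42903. A match is a description of the letters and no evidence that a factor binds.

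Differentiation conditions lowered nearly the whole set. Between Ctrl libraries, 97 of 101 members fell and none rose at an adjusted p under 0.05 (limma on log2(FPKM + 0.1), Benjamini-Hochberg over 19498 genes), where 31.6% of all genes tested fell and 25% rose. The values of both conditions were deposited in separate tables and set side by side as FPKM. The members' median log2 fold change was -1.09, against -0.06 for all genes tested, which start at a mean of 0.1 FPKM. Among the 12928 genes at the members' own threshold of 1 FPKM, 5472 fell and 3128 rose, with a median of -0.21. The summed FPKM of the members was 10803, 8272 and 8559 in the proliferating Ctrl libraries and 4241, 4530 and 4145 in the differentiation Ctrl libraries. The groups did not overlap, and the means were 9211 ± 1386 and 4306 ± 200 (SD, n = 3). The smallest exact permutation p that 3 against 3 libraries allow is 0.10 (two-sided).

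**Figure D1:**
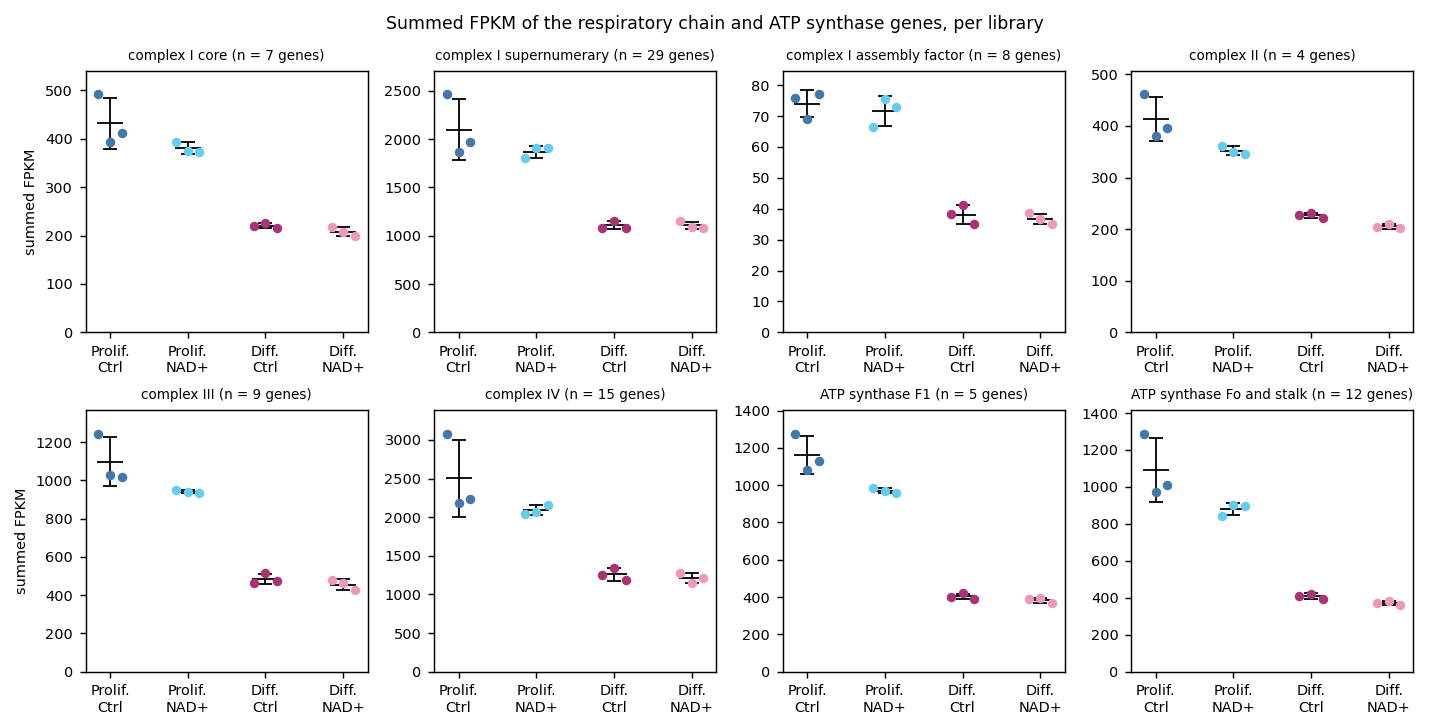
Summed FPKM of the members in 8 role groups (vertical axes, linear from 0) in each of the 12 libraries (points), with the mean and SD of each group of 3 in black. In every role group the 6 differentiation libraries lie below the 6 proliferating libraries, and proliferating Ctrl replicate 1 is the highest library in all groups but the assembly factors.

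The fall was deepest in ATP synthase. All 5 F1 genes fell, with a median log2 fold change of -1.41, and all 12 genes of Fo and the stalk fell, with a median of -1.32. Atp5b gave 482, 417 and 446 FPKM in proliferating Ctrl and 134, 139 and 127 FPKM in differentiation Ctrl. Its groups were far apart, and its log2 fold change was -1.75 ± 0.07 (SE, adjusted p = 1.16e-08). Atp5g3 gave 238, 174 and 183 FPKM against 56.3, 56.3 and 48.1 FPKM, again with no overlap, a log2 fold change of -1.88 ± 0.11 (adjusted p = 1.89e-07).

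All 9 complex III genes fell, with a median of -1.19. Uqcrq, a small subunit of the complex, moved most, from 73.4, 59.0 and 60.2 FPKM to 21.3, 25.6 and 19.7 FPKM, with a log2 fold change of -1.53 ± 0.10 (adjusted p = 5.34e-07). Complex II fell in all 4 genes, with a median of -0.96. Its membrane anchor Sdhd went from 140, 116 and 118 FPKM to 48.4, 51.8 and 45.6 FPKM, a log2 fold change of -1.35 ± 0.08. The catalytic subunit Sdha fell by less, from 142, 129 and 136 FPKM to 99.3, 98.7 and 102 FPKM, a log2 fold change of -0.44 ± 0.06.

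Complex I moved least at its median. All 7 core subunits and all 29 supernumerary subunits fell, with medians of -0.89 and -0.87. Ndufv2, an iron-sulfur subunit of the NADH-oxidising module, fell furthest among core genes, at -1.39 ± 0.13 (adjusted p = 4.05e-06), and Ndufc1 furthest among supernumerary genes, at -1.47 ± 0.13 (adjusted p = 2.65e-06). Of the 8 assembly factors, 7 fell, led by Ndufaf5, which hydroxylates the core subunit Ndufs7, at -1.64 ± 0.20 (adjusted p = 4.46e-05). Ndufaf4 did not pass the test and gave 3.10, 2.50 and 9.84 FPKM in proliferating Ctrl against 3.08, 4.04 and 3.83 FPKM. Proliferating Ctrl replicate 3 alone carried its high value.

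Of the 15 complex IV genes, 13 fell, with a median of -1.11 over the group, while Cox4i1 and Cox6b2 did not pass. Cox4i1, the widely expressed form of subunit 4, gave 220, 214 and 158 FPKM against 135, 180 and 139 FPKM, so the groups overlapped (adjusted p = 0.138). Cox6b2, known as the testis form of subunit 6b, gave 8.45, 6.24 and 5.43 FPKM against 6.30, 9.45 and 8.41 FPKM (log2 fold change 0.27 ± 0.26, adjusted p = 0.417). Cox8b, known as the heart and muscle form of subunit 8, gave 8.63, 3.56 and 2.59 FPKM in proliferating Ctrl and was listed at 0 in all 3 differentiation Ctrl libraries, so no fold is given. Cox7a1, the heart and muscle form of subunit 7a, fell from 6.98, 4.84 and 5.00 FPKM to 1.27, 2.04 and 1.47 FPKM, a log2 fold change of -1.76 ± 0.21. Of the 12 pseudogene and related loci, 11 fell; Cox7c-ps1 fell furthest at -1.76 ± 0.38 (adjusted p = 0.00214), and Ndufb4c did not pass (adjusted p = 0.407).

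Between NAD+ libraries the same contrast gave 94 of 101 members lower and none higher, where 37.6% of all genes fell and 20.8% rose, with a median of -0.98 against -0.20 for all genes. Among the 12928 genes with a mean of at least 1 FPKM, 6474 fell and 2557 rose, with a median of -0.37. Summed FPKM was 7704, 7817 and 7943 in the proliferating NAD+ libraries and 4266, 4088 and 4021 in the differentiation NAD+ libraries. The members that did not pass were Cox4i1, Cox6c, Ndufa1, Ndufaf4, Ndufb4c, Atp5k-ps2 and Ndufs5-ps. Cox4i1 gave 151, 144 and 145 FPKM against 218, 128 and 214 FPKM, a log2 fold change of 0.31 ± 0.20 (adjusted p = 0.218). Cox6b2 fell here, from 11.4, 6.25 and 6.29 FPKM to 4.62, 4.54 and 3.06 FPKM, a log2 fold change of -0.92 ± 0.26 (adjusted p = 0.0115).

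**Figure D2:**
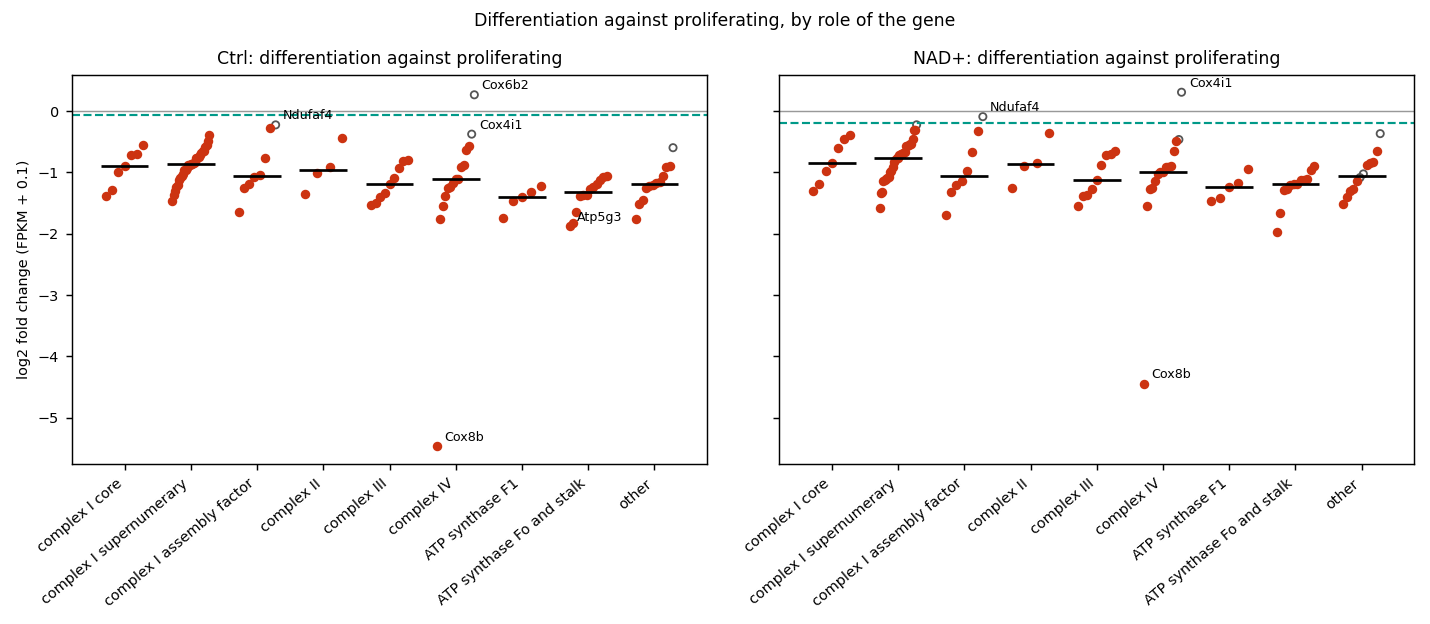
Log2 fold change on FPKM + 0.1 (vertical axis) of each member for differentiation against proliferating conditions, in Ctrl (left) and NAD+ (right), by role group. Filled points passed an adjusted p of 0.05, bars are group medians and the dashed line is the median of all genes tested; nearly all points lie below it, and the position of Cox8b depends on the added 0.1 because it is listed at 0 in differentiation Ctrl.

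FPKM values are relative to the rest of the library, and transcripts of mitochondrial DNA took 16.4% to 19.9% of the summed FPKM in proliferating libraries and 28.9% to 33.2% in differentiation libraries. Left without those transcripts, the members still held 2.99% to 3.71% of the remaining FPKM in proliferating libraries and 1.74% to 1.95% in differentiation libraries. Median-ratio scaling, which sets the median gene of each library alike, moved the median of all genes from -0.06 to 0.05 between Ctrl groups and from -0.20 to 0.05 between NAD+ groups. It left 92 members lower in Ctrl, with a median of -0.96, and 79 lower in NAD+, with a median of -0.70, while Cox4i1 then rose in NAD+ (adjusted p = 0.0349).

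The 13 subunits encoded in mitochondrial DNA mostly went the other way on the FPKM scale. Under median-ratio scaling their median log2 fold change was 0.66 in Ctrl and 1.29 in NAD+. It was 0 in both under quantile normalization, which gives genes of the same rank the same value in every library. That method therefore cannot show a change in genes that keep their rank. On the FPKM scale, between Ctrl groups 9 of 13 rose and 1 fell, with a median log2 fold change of 0.53, and between NAD+ groups 11 of 13 rose, with a median of 1.01. mt-Nd5, a proton-pumping subunit of complex I, gave 2430, 2230 and 2284 FPKM in proliferating Ctrl and 5622, 6270 and 6010 FPKM in differentiation Ctrl, a log2 fold change of 1.37 (adjusted p = 2.83e-06). Other nuclear lists mostly fell. All 13 TCA cycle genes fell in Ctrl, with a median of -0.82, as did 74 of 83 genes of the mitochondrial ribosome (median -0.86) and 77 of 79 cytosolic ribosomal protein genes (median -1.14). Of 10 genes of pyruvate dehydrogenase and pyruvate entry, 7 fell and 1 rose, and of 26 assembly and regulatory factors for complexes III, IV and ATP synthase, 17 fell and 2 rose. Of 6 other electron carriers and entry points 5 fell, led by cytochrome c (Cycs), which went from 73.4, 60.8 and 67.4 FPKM to 11.8, 12.2 and 12.3 FPKM. All 3 tested carriers of adenine nucleotides and phosphate fell (median -1.31). Of 12 regulators of mitochondrial biogenesis, 8 fell, led by the coactivator Ppargc1a at -1.38 (adjusted p = 2.08e-05).

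The cells also differed in kind between the conditions. Summed markers of dividing cells were 219 to 303 FPKM over the proliferating libraries and 21.7 to 24.97 FPKM over the differentiation libraries, with 8 of 8 lower in Ctrl. Summed astrocyte markers were 911 to 1196 FPKM and 1644 to 2108 FPKM, with 5 of 8 higher in Ctrl and 2 lower, and Gfap, an astrocyte filament, rose by 4.96 on the log2 scale in Ctrl (adjusted p = 6.82e-09). Summed stem/progenitor markers were 1610 to 2873 FPKM and 757 to 851 FPKM, a sum led by Fabp7, with 5 of 8 lower and 0 higher in Ctrl. Summed oligodendrocyte lineage markers were 1013 to 1379 FPKM and 341 to 464 FPKM, a sum led by Olig1. Of the 7 tested oligodendrocyte lineage markers, 3 rose and 2 fell in Ctrl. Neuron markers summed to 52.1 to 84.2 FPKM and 36.9 to 44.6 FPKM, a sum led by Gap43 under proliferating conditions, which fell by 2.34 on the log2 scale in Ctrl. Of the 8 neuron markers, 2 rose and 2 fell in Ctrl, and 4 rose and 2 fell in NAD+, with medians of 0.12 and 0.31. Dcx, a marker of newborn neurons, rose by 1.42 on the log2 scale in Ctrl. Ependymal markers summed to 9.60 to 11.6 FPKM and 25.4 to 31.7 FPKM. Markers of microglia summed to at most 0.39 FPKM and endothelial markers to at most 0.19 FPKM in any library. The part of these shifts in the fall of the members was not tested, and in bulk libraries fewer cells of a type and less RNA per cell cannot be told apart.

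The balance among the members shifted as well, on measures that do not depend on library scaling and that were chosen after the values had been seen. The summed FPKM of the 17 ATP synthase genes over that of the 36 complex I subunits was 0.868, 0.910 and 0.899 in proliferating Ctrl and 0.625, 0.611 and 0.604 in differentiation Ctrl. The NAD+ libraries gave 0.832, 0.821 and 0.814 under proliferating conditions and 0.556, 0.600 and 0.568 under differentiation conditions. The proliferating and differentiation values did not overlap, and neither did Ctrl and NAD+ within either condition (exact permutation p = 0.10 for each, two-sided, the smallest possible). Taken as the difference of the median log2 levels of both sets, it was 0.65 ± 0.02 in proliferating Ctrl and 0.47 ± 0.09 in proliferating NAD+, without overlap (SD, n = 3, exact permutation p = 0.10). Under differentiation conditions that measure was 0.40 ± 0.04 in Ctrl and 0.53 ± 0.13 in NAD+, with overlapping libraries (exact permutation p = 0.30), so there the direction rested on the way the sets were summarised. The same holds for differentiation against proliferating conditions in NAD+, where this measure was 0.47 and 0.53, opposite in direction to the ratio of sums and with overlapping libraries (exact permutation p = 0.50). In Ctrl both measures were lower under differentiation conditions.

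Isoforms of the c subunit, which 3 genes encode as the same mature protein, changed places. Atp5g3 supplied 52.8% ± 0.3 of the summed FPKM of Atp5g1, Atp5g2 and Atp5g3 in proliferating Ctrl and 41.0% ± 1.8 in differentiation Ctrl (SD, n = 3). Atp5g2 supplied 41.9% ± 0.6 and 54.6% ± 1.9, so it was the larger source only under differentiation conditions, and the same order held in every NAD+ library. Neither share overlapped between the conditions (exact permutation p = 0.10). Cox6b2 supplied 2.08% ± 0.15 of the summed FPKM of Cox6b1 and Cox6b2 in proliferating Ctrl, 2.91% ± 1.09 in proliferating NAD+, 5.27% ± 0.68 in differentiation Ctrl and 3.01% ± 0.65 in differentiation NAD+. In the other families 1 form gave 98.8% to 100.0% of the summed FPKM in every library, namely Cox4i1, Cox6a1, Cox8a and Ndufa4. The exception was the summed FPKM of Cox7a1, Cox7a2 and Cox7a2l, of which Cox7a2 and Cox7a2l each held 39.4% to 58.9%.

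**Figure D3:**
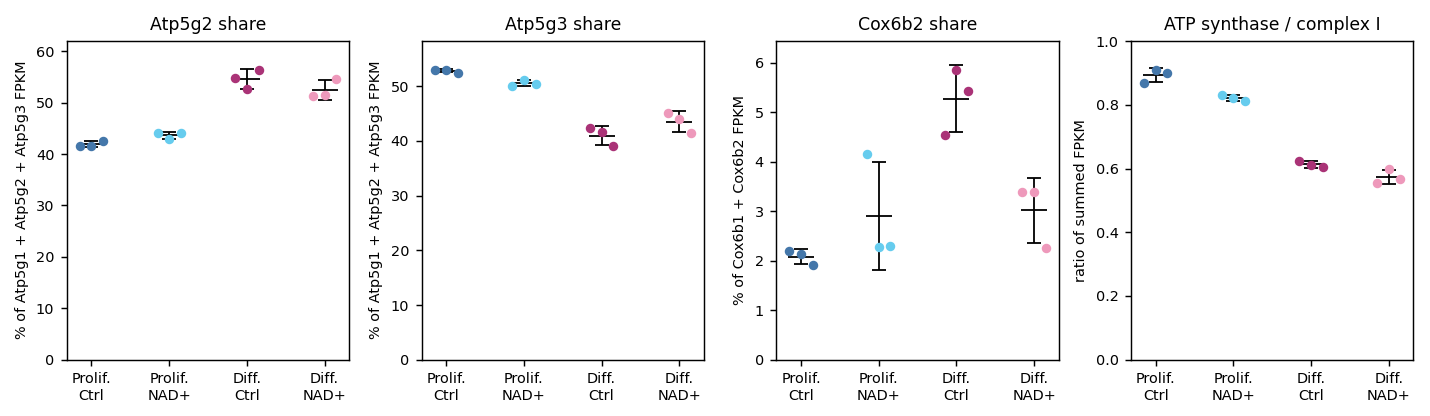
Shares of Atp5g2 and Atp5g3 in the summed FPKM of the c subunit genes, share of Cox6b2 in the summed FPKM of Cox6b1 and Cox6b2 (percent), and ratio of summed FPKM of ATP synthase to complex I subunits, in each library (points) with mean and SD per group of 3 in black. Atp5g2 and Atp5g3 exchange rank between the conditions, and the ratio steps down from 0.893 in proliferating Ctrl to 0.574 in differentiation NAD+.

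Adding NAD+ under proliferating conditions changed no member past the threshold. None of the 101 members was higher or lower at an adjusted p under 0.05 (limma, 18597 genes), where 0.0484% of all genes were higher and 0.0968% lower. At an unadjusted p under 0.05, 1 member was higher, against 9.35% of all genes, and 19 were lower, against 6.05% of all genes. The 3 NAD+ values lay below all 3 Ctrl values for 39 members (38.6%), where 8.59% of all genes did so, and above them for 1 member, where 15.5% did. No member met the rule of an unadjusted p under 0.05 with a ratio of means over 2, which 3.01% of all genes met. The median log2 fold change of the members was -0.20, with 90 below 0 and 11 above, against 0.07 for all genes tested.

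Proliferating Ctrl replicate 1 stood apart from the other libraries of its group. Its summed FPKM over all genes was 363330, against 308828 to 314683 in the other 5 proliferating libraries, and its members summed to 10803 against 8272 and 8559. The gene CT010467 was at 8365 FPKM in it, against 614 and 840 FPKM in the rest of its group. Proliferating NAD+ replicate 1 was also high for that gene, at 3632 FPKM against 710 and 598 FPKM, and the reason was not tested. Without proliferating Ctrl replicate 1 the median of the members was -0.08. The count of members with separate values cannot fall when a library is left out, so it does not bear on this library. Markers moved here too. Summed stem/progenitor markers were 2625 to 2873 FPKM in Ctrl and 1610 to 2122 FPKM in NAD+, and oligodendrocyte lineage markers 1265 to 1379 FPKM and 1013 to 1045 FPKM, with no gene of these lists past the threshold. Most of the stem/progenitor sum was Fabp7, at 2034, 2032 and 2254 FPKM in Ctrl and 1030, 1403 and 1516 FPKM in NAD+. Of its 8 genes, 5 were lower at an unadjusted p under 0.05 (limma). The other 3 were Nes, Vim and Sox2, with log2 fold changes of 0.27, -0.01 and -0.05. Neuron markers summed to 70.8 to 84.2 FPKM and 52.1 to 56.0 FPKM, and 1 of them passed, Gap43, with a log2 fold change of -1.01 (adjusted p = 0.0266). Astrocyte markers summed to 1117 to 1196 FPKM and 911 to 1066 FPKM, with none past the threshold. Their part in the member values was not tested.

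By role, the medians under proliferating conditions ran from -0.29 for F1 and -0.27 for complex IV to -0.15 for the supernumerary subunits of complex I and -0.09 for its assembly factors. Without proliferating Ctrl replicate 1 they ran from -0.15 for F1 to -0.04 for the supernumerary subunits. The smallest p belonged to Atp5o, the stalk subunit that ties the catalytic head to the rest of ATP synthase. It gave 199, 149 and 154 FPKM in Ctrl and 102, 122 and 104 FPKM in NAD+, a log2 fold change of -0.60 ± 0.14 (SE, adjusted p = 0.138). The values did not overlap. A second gene model with the same symbol, whose exon shares 130 bases with it on the same strand, was listed at 0, so reads in that stretch may be lost from the count.

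The next members by p were also lower in every NAD+ library than in every Ctrl library. Atp5pb, the b subunit of the stalk, gave 91.9, 78.6 and 77.8 FPKM against 64.3, 59.6 and 67.0 FPKM (log2 fold change -0.38 ± 0.10, adjusted p = 0.163). Cyc1, the cytochrome c1 of complex III, gave 123, 104 and 110 FPKM against 92.8, 89.5 and 89.2 FPKM (-0.31 ± 0.09, adjusted p = 0.196). Cox7b, a small subunit of complex IV, gave 170, 145 and 144 FPKM against 114, 127 and 125 FPKM (-0.32 ± 0.10, adjusted p = 0.216). Atp5b gave 482, 417 and 446 FPKM against 374, 368 and 356 FPKM (-0.29 ± 0.09, adjusted p = 0.225), and Cox4i1 gave 220, 214 and 158 FPKM against 151, 144 and 145 FPKM (-0.41 ± 0.14, adjusted p = 0.247). When all 12 libraries shared 1 estimate of the spread, Atp5o, Cyc1, Cox7b and Atp5b passed, with adjusted p of 0.0212, 0.0368, 0.041 and 0.0426.

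In the remaining role groups the smallest p belonged to Ndufs8, an iron-sulfur core subunit of complex I (-0.31 ± 0.10, adjusted p = 0.25), Sdha (-0.23 ± 0.09, adjusted p = 0.28), Ndufb8 of the complex I membrane arm (-0.31 ± 0.13, adjusted p = 0.314) and the pseudogene Atp5pb-ps (-0.33 ± 0.11, adjusted p = 0.251). Ndufaf2, an assembly factor of complex I, was the single member whose NAD+ values all lay above Ctrl. It gave 7.56, 7.19 and 7.51 FPKM in Ctrl and 7.97, 9.09 and 10.4 FPKM in NAD+ (0.29 ± 0.12, adjusted p = 0.304).

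**Figure D4:**
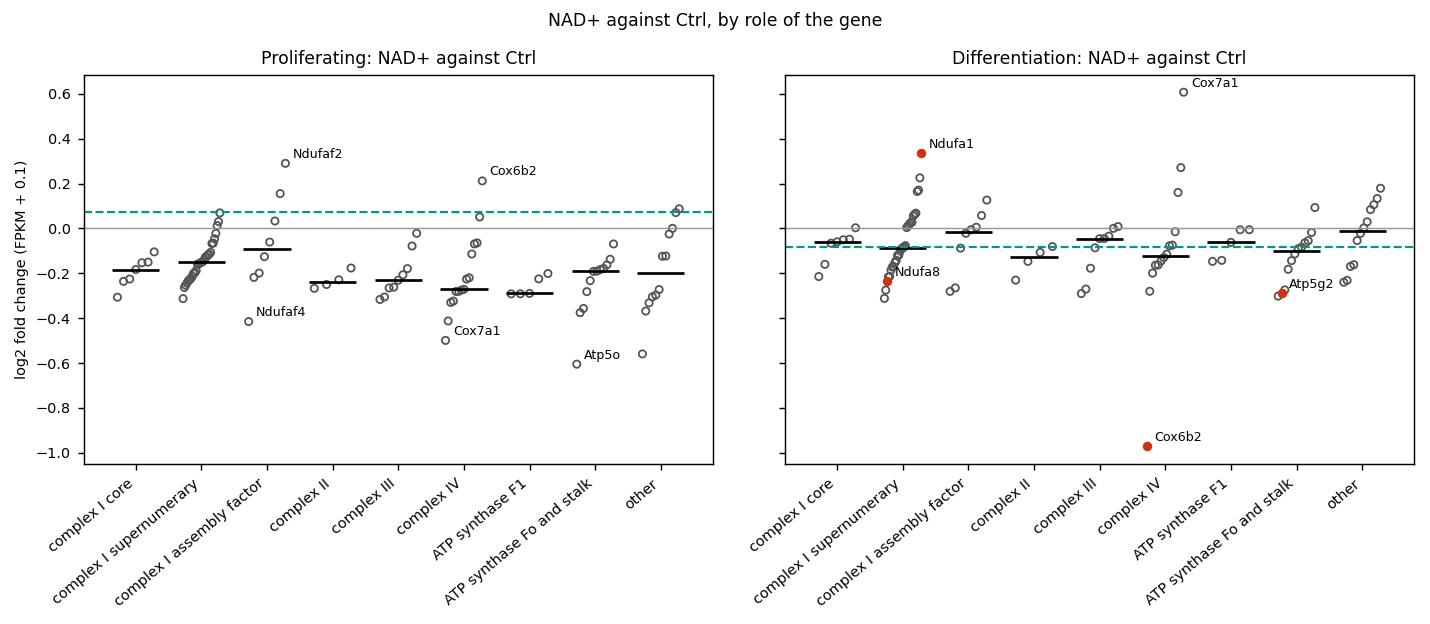
Log2 fold change on FPKM + 0.1 (vertical axis) of each member for NAD+ against Ctrl, under proliferating (left) and differentiation (right) conditions, by role group. Filled points passed an adjusted p of 0.05, bars are group medians and the dashed line is the median of all genes tested: 0 points are filled on the left and 4 on the right.

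Under differentiation conditions NAD+ changed 4 of the 100 members tested. Ndufa1 was higher, where 2.27% of all genes were, and Atp5g2, Ndufa8 and Cox6b2 were lower, where 4.65% of all genes were (limma, 19611 genes), so the share called among members was below that of all genes. Cox8b was too low to be tested. At an unadjusted p under 0.05, 4 members were higher and 14 lower, against 7.5% and 16.7% of all genes. Values did not overlap for 4 higher and 18 lower members, against 9.68% and 21.1% of all genes, and no member met the rule with a ratio over 2, which 4.05% met. The median of the members was -0.0819 and that of all genes tested was -0.085. Median-ratio scaling moved both to near 0, at 0.0014 and -0.0077. Summed astrocyte markers were 1644 to 1766 FPKM in Ctrl and 1996 to 2108 FPKM in NAD+ (3 of 8 genes rose and 2 fell), and transcripts of mitochondrial DNA took 28.9% to 29.8% and 29.5% to 33.2% of the summed FPKM; their part in the member values was not tested.

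Ndufa1 is an X-linked supernumerary subunit at chrX:37187588-37191163 (mm10, minus strand) that complex I needs for its assembly. It gave 86.4, 85.9 and 84.9 FPKM in Ctrl and 108, 105 and 112 FPKM in NAD+. The Ctrl libraries lay close together and every NAD+ library lay above them, with a log2 fold change of 0.34 ± 0.04 (SE, a 1.26-fold rise, adjusted p = 0.0114). Under proliferating conditions it gave 173, 126 and 130 FPKM in Ctrl and 125, 127 and 127 FPKM in NAD+, so there the groups overlapped. Without differentiation Ctrl replicate 1 or 3 its call was lost (adjusted p = 0.0546 and 0.0515).

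Atp5g2, at chr15:102662864-102672352, gave 72.9, 71.2 and 69.5 FPKM in differentiation Ctrl and 57.1, 57.8 and 59.9 FPKM in NAD+, a log2 fold change of -0.29 ± 0.04 (adjusted p = 0.0173). Its sister genes did not pass, with log2 fold changes of -0.14 ± 0.08 for Atp5g3 and -0.30 ± 0.26 for Atp5g1. Ndufa8, a supernumerary complex I subunit on the side of the intermembrane space, at chr2:36036326-36049406, gave 49.5, 51.3 and 50.2 FPKM against 42.8, 44.0 and 41.6 FPKM (-0.23 ± 0.04, adjusted p = 0.0313). Both genes hold the letters GCGCATGC or their reverse complement in the promoter windows printed above, which Ndufa1 and Cox6b2 do not hold. In all 12 members hold these letters, and the others were not called in this comparison. A link between the letters and the NAD+ values was not tested. Median-ratio scaling left Atp5g2 past the threshold (adjusted p = 0.0467) and took Ndufa8 out (adjusted p = 0.131). With 1 differentiation library left out at a time, the call of Atp5g2 held without NAD+ replicate 2 or 3 and was lost without any of the others (adjusted p from 0.0418 to 0.0734), and the calls of Ndufa8 and Cox6b2 were lost each time.

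Cox6b2, at chr7:4751792-4753094, showed the largest change of the members under NAD+ and differentiation conditions. It gave 6.30, 9.45 and 8.41 FPKM in Ctrl and 4.62, 4.54 and 3.06 FPKM in NAD+, a log2 fold change of -0.97 ± 0.21 (adjusted p = 0.0453). The groups did not overlap, and median-ratio scaling took it out (adjusted p = 0.0664). In a fit blocked by replicate number, Atp5g2, Ndufa8 and Cox6b2 no longer passed, with adjusted p of 0.0548, 0.0611 and 0.0868, while Ndufa1 did, at 0.0416.

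Members short of the threshold under differentiation conditions followed in order of p. Ndufa6, which binds the acyl carrier subunit of complex I, gave 23.4, 22.4 and 21.7 FPKM in Ctrl and 19.4, 17.4 and 18.9 FPKM in NAD+ (log2 fold change -0.28 ± 0.06, adjusted p = 0.0523). Cox7b gave 56.0, 60.1 and 57.9 FPKM against 49.3, 51.0 and 51.2 FPKM (-0.20 ± 0.05, adjusted p = 0.0557). Sdha gave 99.3, 98.7 and 102 FPKM against 90.6, 88.9 and 91.0 FPKM (-0.15 ± 0.04, adjusted p = 0.0802), and Uqcrfs1, the Rieske iron-sulfur protein of complex III, had -0.29 ± 0.08 (adjusted p = 0.0865). In each of these 4 genes all NAD+ libraries lay below all Ctrl libraries. The smallest p of the other role groups belonged to Atp5a1, the alpha subunit of the catalytic head (-0.15 ± 0.06, adjusted p = 0.181), Ndufaf4 (-0.28 ± 0.12, adjusted p = 0.22), the core subunit Ndufs3 (-0.16 ± 0.07, adjusted p = 0.245) and Ndufa12-ps (-0.17 ± 0.08, adjusted p = 0.264).

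**Figure D5:**
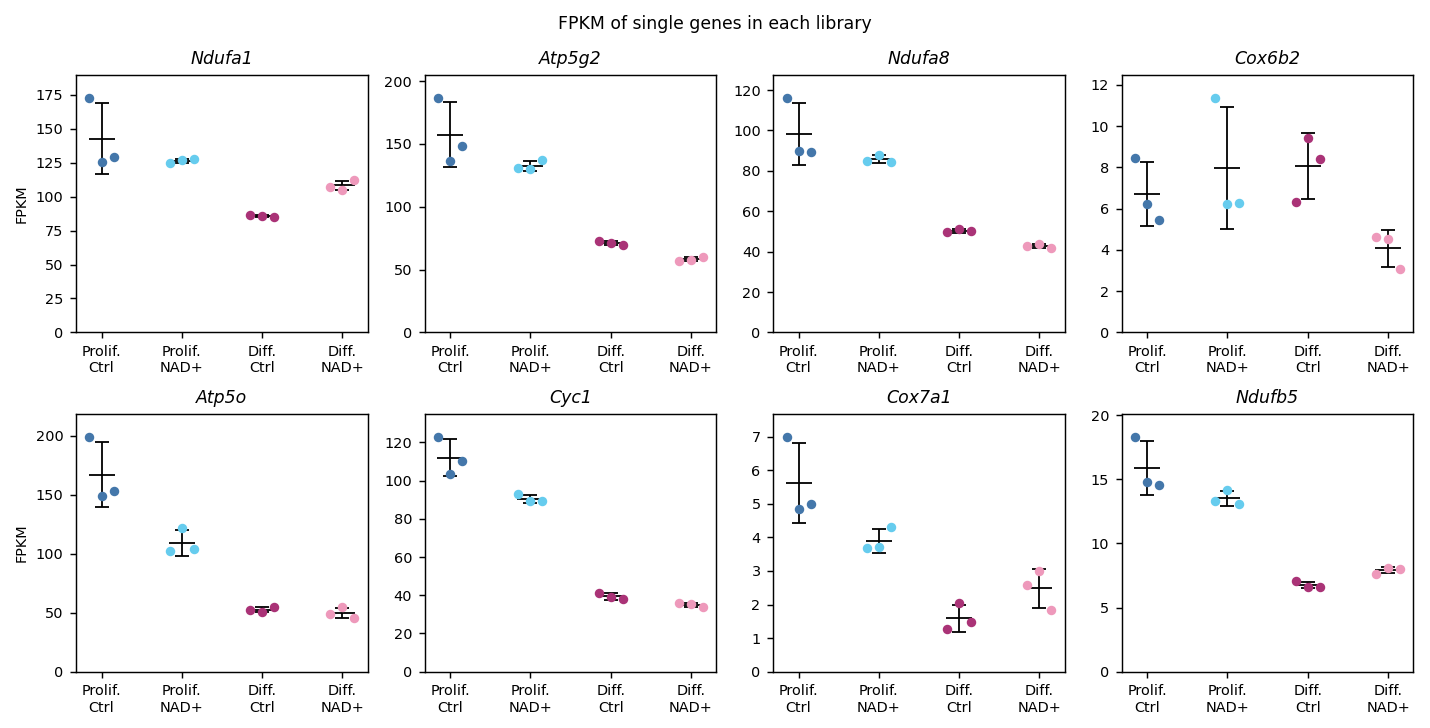
FPKM (vertical axes, linear from 0) of 8 members in each of the 12 libraries (points), with the mean and SD of each group of 3 in black. Ndufa1 rises and Atp5g2, Ndufa8 and Cox6b2 fall with NAD+ under differentiation conditions, and Atp5o and Cyc1 are lower with NAD+ under proliferating conditions without passing the adjusted threshold.

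Whether the NAD+ effect differed between the conditions was asked in a fit of all 12 libraries. No member passed an adjusted p of 0.05 in either direction, where 0.221% of 19498 genes had a higher and 0.246% a lower effect under differentiation conditions. At an unadjusted p under 0.05, 8 members had a higher and 1 a lower effect, against 3.35% and 12.2% of all genes. The smallest adjusted p was 0.133, for Cox7a1, whose log2 fold changes were -0.50 under proliferating conditions and 0.61 under differentiation conditions. It gave 6.98, 4.84 and 5.00 FPKM in proliferating Ctrl, 3.67, 3.70 and 4.31 FPKM in proliferating NAD+, 1.27, 2.04 and 1.47 FPKM in differentiation Ctrl and 2.58, 3.01 and 1.85 FPKM in differentiation NAD+, so the differentiation groups overlapped. For Ndufa1 the difference was 0.49 ± 0.14 on the log2 scale (adjusted p = 0.152), and without proliferating Ctrl replicate 1 it passed.

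Few genes of the lists around the members passed the adjusted threshold with NAD+. At an unadjusted p under 0.05, 7 of 13 TCA cycle genes were lower under proliferating conditions (list median -0.22), where 6.05% of all genes were, and 37 of 80 cytosolic ribosomal protein genes were lower under differentiation conditions (list median -0.17), where 16.7% of all genes were. Under proliferating conditions no gene of the TCA cycle, pyruvate entry, electron carrier, assembly factor, nucleotide carrier, biogenesis, mitochondrial ribosome or cytosolic ribosome lists passed. Their smallest p values belonged to Idh3a, Pdha1, Etfa, Uqcc3, Slc25a3, Pprc1, Mrpl54 and Rps12, with adjusted p from 0.145 to 0.394. Of the 13 subunits of mitochondrial DNA, mt-Atp6 fell. It gave 5424, 3959 and 3243 FPKM in Ctrl and 740, 724 and 843 FPKM in NAD+ (adjusted p = 0.0266), but also ranged from 1322 to 6495 FPKM within the differentiation groups, and it overlaps mt-Atp8 on the mitochondrial genome. Under differentiation conditions Slc25a5, an ADP/ATP carrier, fell from 194, 192 and 192 FPKM to 158, 169 and 154 FPKM (log2 fold change -0.27, adjusted p = 0.0288). Atpaf1, which assembles F1, fell from 1.81, 2.04 and 2.50 FPKM to 1.2, 1.38 and 1.02 FPKM (-0.77, adjusted p = 0.0478). Pprc1, a coactivator of the PGC-1 family, rose from 1.60, 1.55 and 1.48 FPKM to 2.68, 2.53 and 2.11 FPKM (0.62, adjusted p = 0.0349). In the mitochondrial ribosome 3 of 83 genes fell, led by Mrps28, and in the cytosolic ribosome 4 of 80 fell, led by Rpl35. No gene of the TCA cycle, pyruvate entry or electron carrier lists passed, where Idh3a (adjusted p = 0.0544), Pdha1 (0.0876) and Cycs (0.105) came nearest. None of the 13 subunits of mitochondrial DNA passed, with mt-Nd6 nearest at an adjusted p of 0.0673. At an unadjusted p under 0.05, 7 of these 13 were higher, where 7.5% of all genes were. Their median log2 fold change was 0.24, and 0.33 under median-ratio scaling.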

How the data were processed

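Total RNA of aNSPCs was sequenced in 12 libraries. Per the study's methods, libraries were made with a NEBNext Ultra kit, which does not mark strand, reads were aligned to mm10 with Hisat2 v2.0.5, uniquely mapped reads were counted with FeatureCounts v2.0.1, and the program that made the FPKM values was not given in the sources used here. The deposited tables hold FPKM values that the authors rounded to steps of 0.01, so read depth is unknown. The authors' own fold change, p-value, q-value, regulation and significance columns in those tables were not used.

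The 2 condition tables were joined by gene ID, and 0.1 was added before log2. Genes with a mean of at least 0.1 FPKM over the libraries of a fit were tested with limma 3.58.1 (R 4.3.3, empirical Bayes with a variance trend, Benjamini-Hochberg adjustment over all genes tested). Each NAD+ comparison used the 6 libraries of its condition, and the other comparisons used all 12. Single values were compared with exact two-sided permutation tests. Ratios over 2 used means with values of 0 set to 0.0001. The same fitting function was also run on simulated data with known changes, and the outcome is not given here. Positions, exons and gene types came from GENCODE M21, and promoter windows from RefSeq on GRCm38.p6. In 20 members an exon overlaps that of another gene with a mean of at least 1 FPKM; without strand, reads of such partners cannot be told apart.

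The members and lists were chosen with earlier results of these data known. In each NAD+ comparison the text names, per role group, the called members with the largest rise and fall or else the smallest p, and the 6 smallest p overall. In the differentiation comparison between Ctrl libraries it names the largest called rise and fall per role group, and for levels the highest members by group and the isoform families; 1 result under this rule is not reported here. Cox4i1, Cox6b2, Cox7a1, Cox6c, Ndufaf4, Ndufb4c and Ndufb5 were in addition named after their values were seen, as exceptions. Alternatives were another addition before log2 (1 or 0.01), no filter or a mean of at least 1 FPKM, median-ratio scaling, quantile normalization, a replicate block, no variance trend, a fit of all 12 libraries, and leaving out each library.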

Additional observations from a re-analysis of the deposited data

Results flagged for a closer look

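The 3 NAD+ libraries lay entirely below Ctrl under proliferating conditions and entirely above Ctrl under differentiation conditions for Ndufb5, a supernumerary subunit of the complex I membrane arm. It gave 18.3, 14.8 and 14.6 FPKM in proliferating Ctrl, 13.3, 14.2 and 13.1 FPKM in proliferating NAD+, 7.05, 6.59 and 6.63 FPKM in differentiation Ctrl and 7.64, 8.11 and 7.99 FPKM in differentiation NAD+. The log2 fold changes were -0.22 and 0.23, and their difference of 0.45 did not pass in limma's test of the difference (adjusted p = 0.139, unadjusted p = 0.00463). Ndufb5 shares 530 exonic bases with Mrpl47 on the opposite strand, whose log2 fold changes were -0.01 and -0.19.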

How the results depend on the processing

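The fall of the members under differentiation conditions kept a median below 0 in every alternative run. The number lower was 85 to 97 in Ctrl, lowest under quantile normalization, and 72 to 96 in NAD+, with 79 under median-ratio scaling and 72 under quantile normalization. The median log2 fold change moved beyond the spread between libraries under quantile normalization (-0.67 in Ctrl, -0.58 in NAD+), and in NAD+ under median-ratio scaling (-0.70) and with 1 added (-0.90). In NAD+ 1 member was then higher under median-ratio scaling (Cox4i1), 2 under quantile normalization (Cox4i1 and Ndufa1) and 0 to 1 with a library left out. Under proliferating conditions no member was called for NAD+ in any alternative except the fit of all 12 libraries, with 4 lower. In that comparison the 39 members with separate values became 37 under quantile normalization, 48 under median-ratio scaling and 39 to 62 with a library left out, the highest without proliferating Ctrl replicate 2. Such a count can only stay or rise when a library is left out, so its lower end shows no stability. These alternatives were chosen after seeing the data. The median was -0.26 to -0.08 with a library left out, the latter without proliferating Ctrl replicate 1.

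The calls for NAD+ under differentiation conditions were unstable. The 1 member higher became 2 under median-ratio scaling and quantile normalization (Ndufb5 joined Ndufa1) and 0 without the variance trend or in the fit of all 12 libraries. The 3 lower became 1 under median-ratio scaling, 5 with a minimum mean of 1 FPKM, and 0 without the variance trend or in the fit of all 12 libraries. With a library left out, 0 to 1 were higher (0 without Ctrl replicate 1 or 3) and 0 to 1 lower, in every case fewer than 3. The median reversed to 0.0014 under median-ratio scaling. For the difference of the NAD+ effect, 0 to 1 members were higher with a library left out, the 1 being Ndufa1 without proliferating Ctrl replicate 1. The cause of these changes was not tested.

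The check made did not settle whether replicate numbers pair the libraries. Deviations of same-numbered Ctrl and NAD+ libraries correlated at 0.11, 0.02 and 0.05 under proliferating and 0.04, 0.04 and 0.03 under differentiation conditions. Those of differently numbered libraries correlated at -0.11 to 0.07, and 5 of 6 Ctrl libraries correlated best with their own number. With the replicate block, 1 member was lower under differentiation conditions (Uqcrfs1, not called otherwise) and 1 higher, none under proliferating conditions, and 95 and 93 fell with differentiation in Ctrl and NAD+. With 3 libraries a group and no depth in the files, small changes of low genes such as Cox6b2 and Cox8b cannot be resolved.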
